A study of Rattus norvegicus with 12 samples.

Results

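NPM1 and PPIA were each spotted many times on the nylon arrays used here, and every clone of the 2 genes was followed across 12 samples of rat hippocampal cultures. Of 9600 spots, 8496 carried 1 gene symbol in the platform annotation, and 16 of these were clones of NPM1 (11 clones) or PPIA (5 clones). The 2 genes were chosen with their activity differences in view. Their differences between BiC/4AP and Block, on the 30 min arrays and with time are therefore given as a description with no test, and only the comparison with and without actinomycin D is given with p-values. That comparison includes the 30 min BiC/4AP array, which also enters those differences, so it is not free of the choice.

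NPM1 encodes nucleophosmin, an abundant chaperone of the nucleolus, where ribosomal RNA is made and ribosomal subunits are assembled. It binds histones and ribosomal proteins and shuttles between the nucleolus and the cytoplasm. PPIA encodes cyclophilin A, a cytosolic peptidyl-prolyl isomerase that helps proteins fold. Bound to the drug cyclosporin, cyclophilin A inhibits calcineurin, a calcium-dependent phosphatase that is prominent in hippocampal neurons. PPIA is widely used as a reference gene in expression measurements. Both genes have many processed pseudogenes in mammalian genomes, and the clones are named by human symbols although rat RNA was measured. Signal from related sequences was therefore possible in any clone.

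Cells came from Sprague Dawley rat embryos, grew for 12 days on glial feeder cells and were all held first in Block, for 3 h. Block silences firing with 100 nM tetrodotoxin (TTX), a sodium channel blocker, and the glutamate receptor antagonists CNQX (40 µM) and APV (50 µM). The 6 BiC/4AP samples then received 50 µM bicuculline and 500 µM 4-aminopyridine, which raise synaptic firing, while 6 samples stayed in Block. In each of these groups 3 samples had 25 µM actinomycin D (ActD), which stops transcription, and 3 did not, with 1 sample each at 5, 30 and 60 min. The labels call these times the treatment, whereas the methods describe a stimulus of 5 min and a later harvest. Samples without ActD had its solvent DMSO. Each sample was pooled from 3 coverslips per the labels, while the methods speak of RNA combined over separate experiments, and no condition was repeated.

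Median raw intensity was 24.53 to 69.755 over the 12 arrays. The 30 min BiC/4AP array stood apart from the rest. Its median correlation with the other arrays over all spots was 0.913, against 0.926 to 0.950 for the other 11. It enters 1 of the 6 activity pairs, both time comparisons that involve 30 min, and the ActD comparison, so these comparisons are given with and without it. The arrays carry running numbers, with 4 in a row at each time, so time and array run cannot be told apart.

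Both genes were called abundant when they were chosen, and their spots were checked for brightness. The 5 PPIA clones lay at brightness percentiles 88.8 to 95.9 of all spots, with geometric mean intensities of 146 to 427 over the 12 arrays. NPM1 clones lay at percentiles 59.1 to 86.3, with means of 49.3 to 124. All 11 were thus brighter than the median spot and none was above the 90th percentile. Brightness on these filters also depends on each clone, so it does not order the 2 transcripts. The clones are numbered within each gene by brightness, clone 1 being the brightest. On 11 arrays all 16 clones were above the 95th percentile of blank spots, and on the 30 min BiC/4AP array 15 of 16 did.

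PPIA was low on a single array. In raw intensity, PPIA clone 1 read 88.06 on the 30 min BiC/4AP array, against 687.66 on the 30 min Block array, and between 275.26 and 828.89 (median 538.51) on the 11 arrays other than 30 min BiC/4AP. PPIA clone 2 read 131.56 with 30 min BiC/4AP and 611.19 with 30 min Block, and 247.77 to 657.65 on the other 11. Clone 3 read 70.71 with BiC/4AP and 486.57 with Block at 30 min, and 218.74 to 486.57 on the other 11. None of these 3 clones on the 30 min BiC/4AP array reached its lowest reading elsewhere. PPIA clone 4 read 15.67 with 30 min BiC/4AP and 454.96 with 30 min Block, and 157.12 to 478.54 on the other 11. Its 15.67 did not exceed the 95th percentile of blank spots on that array, 17.56, so it was not above background there. PPIA clone 5, the dimmest, read 48.13 with 30 min BiC/4AP and 232.58 with 30 min Block, and 103.33 to 249.88 on the other 11.

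After normalization (log2 intensities set to a common mean and SD on every array), PPIA averaged 5.78 on the 30 min BiC/4AP array over its 5 clones. The other 3 arrays of 30 min averaged 8.29, and all 11 other arrays lay between 8.19 and 8.56, a range of 0.38. The 30 min BiC/4AP array thus lay 2.58 below the mean of the 11 others (8.36 ± 0.11, SD, n = 11 arrays). The 6 BiC/4AP arrays had a lowest, median and highest PPIA level of 5.78, 8.27 and 8.46, against 8.25, 8.38 and 8.56 in the 6 Block arrays. Apart from the 30 min array, the BiC/4AP and Block levels overlapped, at 8.32 ± 0.11 (SD, n = 5) and 8.39 ± 0.11 (SD, n = 6).

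**Figure D1:**
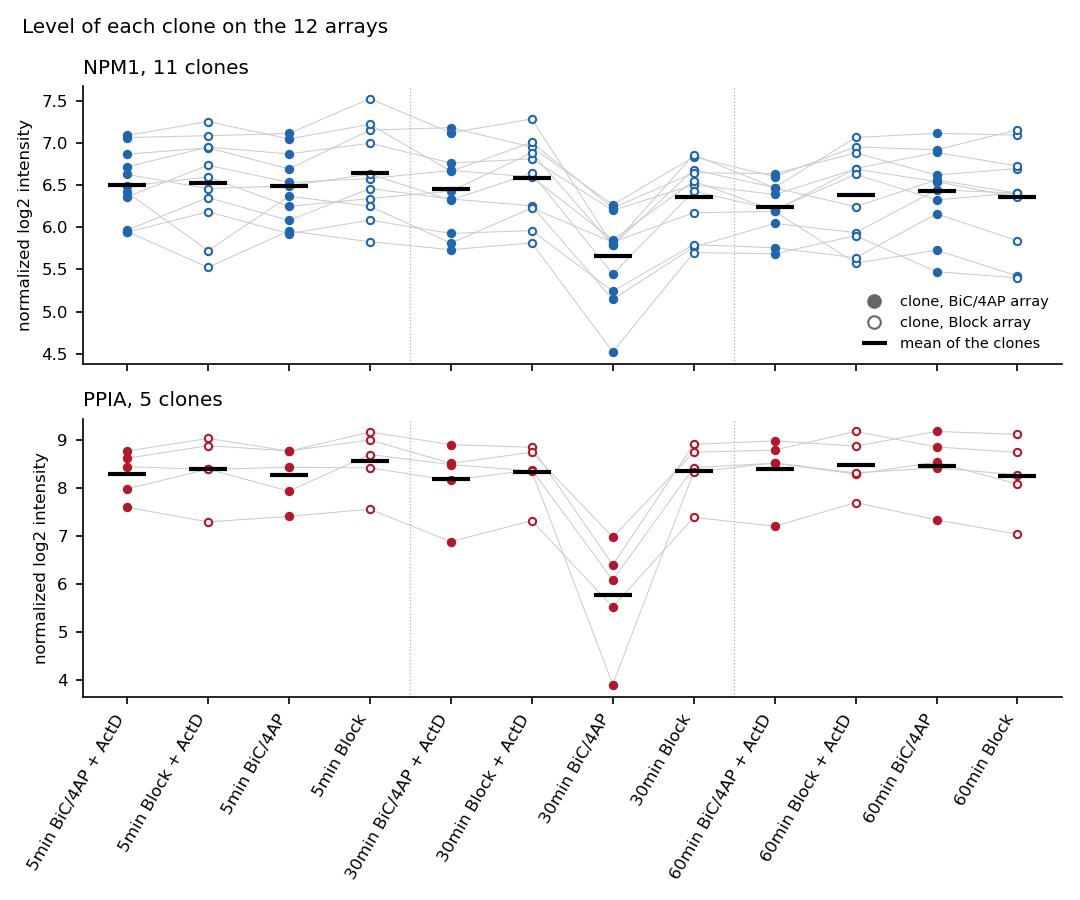
Normalized log2 intensity (vertical axis) of the 11 NPM1 clones (top) and 5 PPIA clones (bottom) on the 12 arrays (horizontal axis). Filled circles are BiC/4AP arrays, open circles Block arrays, grey lines join 1 clone and black bars are means over clones. PPIA averaged 5.78 on the 30 min BiC/4AP array and 8.19 to 8.56 on the others, and NPM1 averaged 5.66 there and 6.24 to 6.64 on the others.

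The activity difference of PPIA, BiC/4AP minus Block, was -2.57 ± 1.07 (log2, SD over 5 clones) in the 30 min pair without ActD, a level 5.96-fold lower with BiC/4AP. All 5 clones were below 0. Clone 4 had the lowest difference, -4.41, clones 1 and 3 had -2.51 and -2.34, and clones 5 and 2 had -1.86 and -1.76. With clone 4 set at the lowest signal above background on that array, its level with BiC/4AP was at least 19.0-fold lower and the mean over the 5 clones was -2.54. Among all 9600 spots of this pair, ranked from the lowest, the 5 clones stood at places 2, 35, 41, 99 and 115. The z-fold, taken here as the pair difference in units of its SD across all spots, was set against 1.4, a limit the study required both with and without ActD. In this pair all 5 PPIA clones had z-folds at or below -1.4, from -6.53 to -2.61, beside 5.96% of all spots. With ActD at 30 min their z-folds lay between -0.84 and 0.26, so none passed in both. As the genes were chosen on this contrast, nothing is read from that count. With arrays of mixed RNA, fewer cells of a type and less RNA per cell cannot be told apart.

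In the 5 other pairs PPIA differed little. Its activity difference averaged -0.08 ± 0.19 (SD, n = 5 pairs), with 4 of 5 pairs below 0. At 5 min it was -0.30 ± 0.29 without ActD (SD over clones, 4 of 5 clones below 0) and -0.12 ± 0.29 with ActD. At 30 min with ActD it was -0.14 ± 0.23. At 60 min it was 0.21 ± 0.16 without ActD, where all 5 clones were above 0, and -0.07 ± 0.34 with ActD. A z-fold of -1.4 or below was reached by 1 PPIA clone at 5 min without ActD (clone 4, beside 3.41% of all spots) and by none in the pairs at 5 min with ActD (3.72%), 30 min with ActD (3.26%), 60 min without ActD (4.06%) and 60 min with ActD (4.48%).

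The mean of PPIA over all 6 pairs, -0.50 ± 1.03 (SD, n = 6 pairs), therefore rested on 1 pair. The 30 min pair without ActD made up 86.2% of the summed difference, and leaving it out moved the mean by 0.42, to -0.08. By clone the share was 85.1% for clone 1, 64.0% for clone 2, 86.6% for clone 4 and 79.5% for clone 5. For clone 3 it was 129%, because its other pairs averaged 0.11 and pulled against the 30 min pair. Every PPIA clone had its lowest difference in this pair and its lowest level of the 12 on this array. The share of all spots that did so is not given here, so nothing is read from these counts. Against the mean of the other 3 arrays of 30 min, clone 4, set at the lowest signal above background, stood at -4.31 or lower, clones 1 and 3 at -2.48 and -2.23, and clones 2 and 5 at -1.69 and -1.67.

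**Figure D2:**
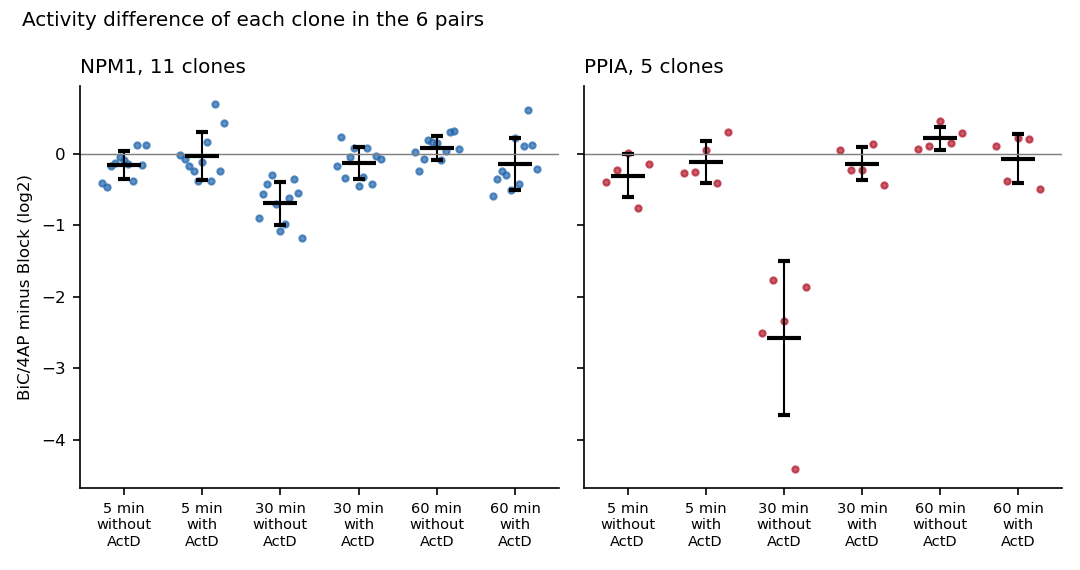
Activity difference, BiC/4AP minus Block on the log2 scale (vertical axis), of each NPM1 clone (left) and PPIA clone (right) in the 6 pairs of time and ActD (horizontal axis). Points are clones, black bars and whiskers the mean and SD over clones. In the 30 min pair without ActD the means were -0.69 for NPM1 and -2.57 for PPIA, and in the other pairs they lay between -0.30 and 0.21.

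NPM1 read low on the same array, by a smaller log2 difference. Its clones were dimmer and no background was subtracted here, so the sizes in NPM1 and PPIA are not compared as transcripts. NPM1 clone 1 read 57.51 on the 30 min BiC/4AP array, against 140.46 on the 30 min Block array, and 81.76 to 208.95 (median 139.72) on the 11 arrays other than 30 min BiC/4AP. NPM1 clone 6 read 57.49 with 30 min BiC/4AP and 159.67 with 30 min Block, and 54.1 to 159.67 on the other 11, so here the raw ranges overlapped. NPM1 clone 11, the dimmest, read 23.88 with 30 min BiC/4AP and 69.62 with 30 min Block, and 29.82 to 77.06 on the other 11. After normalization, 10 of 11 clones had their lowest level of the 12 on this array. Nothing is read from this count, as the share of all spots is not given. The clone that did not was NPM1 clone 9, with a normalized level of 5.82 on this array and 5.42 on the 60 min Block array. In raw intensity it read 58.97 with BiC/4AP and 97.58 with Block at 30 min.

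The NPM1 level averaged 5.66 on the 30 min BiC/4AP array over 11 clones, against 6.46 on the other 3 arrays of 30 min and 6.24 to 6.64 on the 11 others (6.45 ± 0.11, SD, n = 11 arrays). It was 1.73-fold lower than the mean of these 11. The 6 BiC/4AP arrays had a lowest, median and highest level of 5.66, 6.44 and 6.50, against 6.36, 6.46 and 6.64 in the 6 Block arrays. Leaving out the 30 min array, BiC/4AP and Block levels overlapped, at 6.42 ± 0.10 (SD, n = 5) and 6.48 ± 0.13 (SD, n = 6).

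In the 30 min pair without ActD the activity difference of NPM1 was -0.69 ± 0.30 (SD over 11 clones), 1.62-fold lower with BiC/4AP, and 11 of 11 clones were below 0. The lowest was clone 11 at -1.18, followed by clone 6 at -1.07 and clone 7 at -0.99. The highest were clone 4 at -0.30 and clone 9 at -0.35. The brightest, clone 1, had -0.89. A z-fold of -1.4 or below was reached by 3 of 11 clones, clones 6, 7 and 11, beside 5.96% of all spots. From the lowest, NPM1 clones ranked from place 359 to place 2501 among the 9600 spots.

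In the 5 other pairs NPM1 averaged -0.08 ± 0.10 (SD, n = 5 pairs), and 4 of 5 pairs were below 0. The gene means were -0.16 ± 0.20 at 5 min without ActD, with 9 of 11 clones below 0, and -0.03 ± 0.34 at 5 min with ActD. They were -0.13 ± 0.22 at 30 min with ActD, 0.08 ± 0.17 at 60 min without ActD, with 3 of 11 clones below 0, and -0.14 ± 0.36 at 60 min with ActD (SD over 11 clones). Each of these means lay within 1 SD of 0, and no NPM1 clone had a z-fold of -1.4 or below in any of these pairs.

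Over all 6 pairs NPM1 averaged -0.18 ± 0.27 (SD, n = 6 pairs), of which the 30 min pair without ActD made up 64.3%. Without that pair the mean moved by 0.10, to -0.08. By clone the share varied widely, since small sums divide badly. It was 29.5% for clone 3, whose 6 pairs were all below 0, 43.2% for clone 1, 79.3% for clone 6 and 99.8% for clone 10. For clone 11 it was 139%, its other pairs averaging 0.07. Clone 9 went the other way, with a mean of 0.16 over the 6 pairs, differences of 0.69 at 5 min with ActD and 0.61 at 60 min with ActD, and its lowest difference, -0.42, at 30 min with ActD. Clone 9 was the only one of the 16 whose lowest difference was not in the 30 min pair without ActD, again without the share of all spots beside it.

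Clones of 1 gene were read on the same RNA samples, so they are repeated readings and not replicates of a condition. Over the 12 arrays, correlations between PPIA clones ran from 0.88 to 0.99 (median 0.95, 10 pairs of clones), and between NPM1 clones from -0.34 to 0.92 (median 0.63, 55 pairs). Without the 30 min BiC/4AP array the medians were 0.23 for PPIA (-0.24 to 0.69) and 0.22 for NPM1 (-0.71 to 0.85). The common movement of the PPIA clones thus lay almost wholly in that array. Between the NPM1 and PPIA means, r was 0.90 over 12 arrays and 0.18 over the 11 others, and Spearman's rho was 0.31 and 0.11. These values describe arrays of different treatments.

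Spot brightness and print position were set beside the 30 min pair without ActD. Over all spots, the SD of the difference was 0.68 in this pair and 0.52 to 0.57 in the 5 others. The 680 other spots with brightness in the range of the PPIA clones had a median of 0.03, with quartiles of -0.70 and 0.47, and 19.7% of them had z-folds at or below -1.4. The 2609 other spots in the range of the NPM1 clones had a median of -0.06, quartiles of -0.42 and 0.23, and a share of 6.94%. The brightest spots went the other way. Those between the 95th and 98th percentile had a median of 0.57, and the 192 spots above the 98th had 0.79. All 5 PPIA clones lay below the lower quartile of their range, and 9 of 11 NPM1 clones did.

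Print position was compared in the same way. The filter was taken to hold 384 blocks with 25 positions each, and 6 of the NPM1 clones and 1 of the PPIA clones shared position 23. The median difference of all brighter spots at that position was -0.09 in the 30 min pair. At the positions of the other PPIA clones it was 0.40, 0.08 and -0.32. Relative to the median of its own position, PPIA clone 1 was at -2.90, clone 2 at -1.67, clone 3 at -2.42, clone 4 at -4.09 and clone 5 at -1.94. The 11 NPM1 clones were also below 0, from -1.26 to -0.21, and some moved by much of their own size. NPM1 clone 10 was at -0.31 relative to its position and at -0.55 before, and clone 8 at -1.02 and at -0.62.

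**Figure D3:**
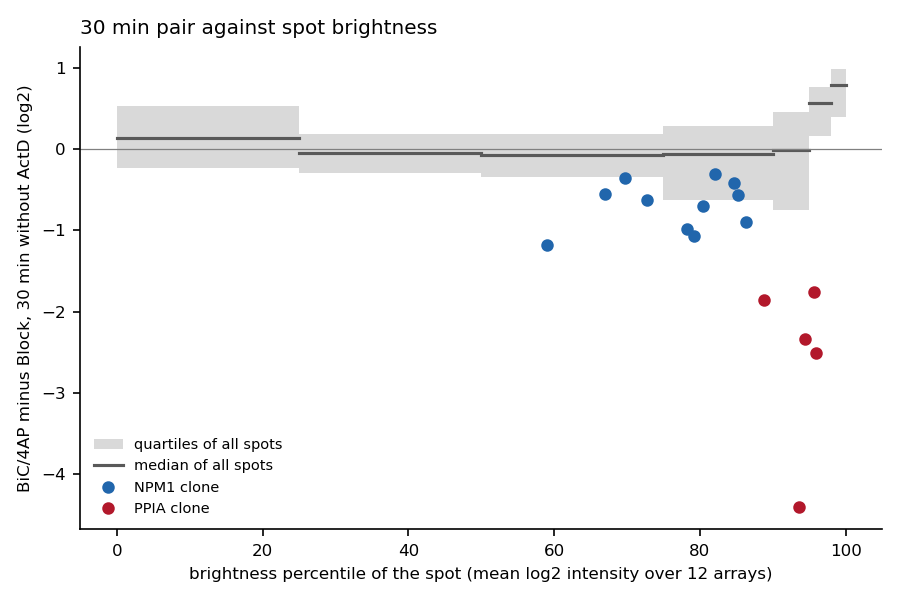
Activity difference in the 30 min pair without ActD, log2 (vertical axis), against the brightness percentile of the spot over 12 arrays (horizontal axis). Dark lines are medians and grey bands quartiles of all spots in 7 brightness bins, blue points NPM1 clones and red points PPIA clones. All 16 clones lie below 0, while the spots above the 98th percentile have a median of 0.79.

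Other repeatedly spotted genes give a scale for a mean over many clones. Besides NPM1 and PPIA, 57 genes had at least 5 clones. Their means in the 30 min pair without ActD ran from -1.52 to 0.53 with a median of -0.13, and 42 of 57 were below 0. From the lowest of all 59, PPIA stood at place 1 and NPM1 at place 7. Between them lay RPL9 at -1.52 ± 0.46 (SD over 5 clones), EEF1A1 at -1.04 ± 0.85 (9 clones), RPL3 at -0.86 ± 0.41 (11 clones), RPS3A at -0.82 ± 0.33 (8 clones) and RAN at -0.80 ± 0.60 (5 clones). RPL9, RPL3 and RPS3A are ribosomal proteins, EEF1A1 is a translation elongation factor, and RAN is the GTPase of nuclear transport. NPM1 and its 3 neighbours RAN, RPS3A and RPL3 differed by less than the SD over their clones. Apart from NPM1 and PPIA, 4 genes (RPL9, RPL3, RPS3A and RAN) had every clone below 0.

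The genes with most clones were mixed. CYCS, cytochrome c, averaged -0.07 ± 0.35 over 14 clones and RSL24D1, a ribosome biogenesis factor, -0.39 ± 0.35 over 12. TUBA1B, an alpha tubulin, averaged 0.24 ± 0.20 over 13. At 9 clones each, besides EEF1A1, the actin ACTG1 averaged -0.14 ± 0.33, the ribosomal protein RPS2 0.18 ± 0.53 and the mitochondrial phosphate carrier SLC25A3 -0.26 ± 0.28. In the 5 other pairs these 8 genes, RPL3 and EEF1A1 included, averaged between -0.11 and 0.05.

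**Figure D4:**
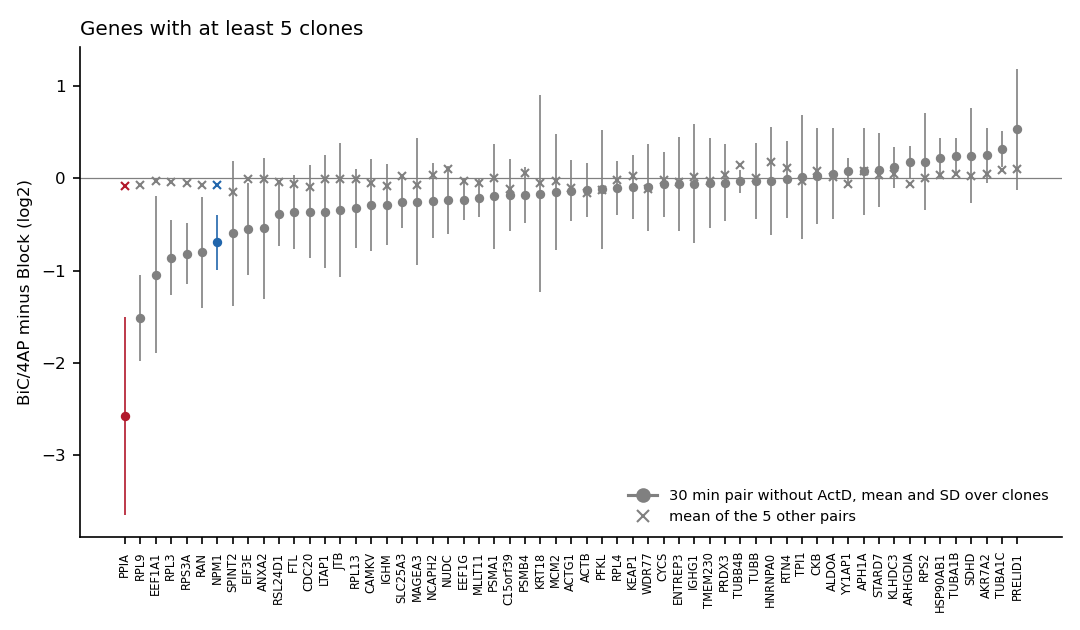
Activity difference, log2 (vertical axis), of the 59 genes with at least 5 clones, ordered by their value in the 30 min pair without ActD (horizontal axis). Circles and lines are the mean and SD over clones in that pair, crosses the mean of the 5 other pairs. PPIA, at -2.57, is the lowest and NPM1, at -0.69, the seventh, and both are near -0.08 in the other pairs.

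The genes most like each member across arrays were sought among 1057 others with at least 2 clones above the dimmest 25% of spots. For PPIA these were RPL31 (r = 0.98 over 12 arrays), RPL9 (0.98) and RPL27 (0.98), all proteins of the large ribosomal subunit, then PCGF6, a Polycomb protein (0.95), and H3-3B, a histone H3.3 gene (0.95). These genes were picked with the 30 min BiC/4AP array included, so low values there come with the choice. Their differences in the 30 min pair without ActD were -2.56, -1.52, -1.80, -1.43 and -1.18. Without the 30 min BiC/4AP array their correlations with PPIA were 0.63, 0.64, 0.66, 0.59 and 0.18. RPL27 was then the most alike of the 1057, RPL9 was at place 5, RPL31 at place 6, PCGF6 at place 12 and H3-3B at place 294. The choice of these genes had also used those 11 arrays. The first places among 1057 genes are high by selection over so few arrays, so nothing is read from these ranks.

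For NPM1 they were EIF4A2, a helicase of translation initiation (r = 0.98), ATP5F1C, a subunit of ATP synthase (0.95), the ribosomal protein RPS25 (0.94), CLDN4, a tight junction protein (0.94), and GAL3ST1, which makes sulfatide (0.94). These genes were likewise picked with the 30 min BiC/4AP array included. In the same 30 min pair they stood at -0.79, -0.82, -0.93, -0.77 and -0.46. Over the 11 arrays without 30 min BiC/4AP their correlations with NPM1 were 0.93, 0.88, 0.80, 0.69 and 0.90. Here EIF4A2, GAL3ST1 and ATP5F1C were among the 5 most alike, with JKAMP (0.97) and MAP7D1 (0.89) beside them. The same limits hold for these ranks, and nothing is read from them. All points share arrays and normalization.

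Time was compared within each of the 4 treatment arms, and 3 of the 4 arms do not contain the 30 min BiC/4AP array. From 5 to 30 min the PPIA level differed by -2.48 ± 0.90 (SD over 5 clones, 5 of 5 below 0) in the BiC/4AP arm, but by -0.09, -0.07 and -0.21 in the BiC/4AP + ActD, Block + ActD and Block arms. The mean of the 4 arms was -0.71 ± 1.18 (SD, n = 4 arms) and that of the 3 arms was -0.12 ± 0.07. With clone 4 at the lowest signal above background, the BiC/4AP arm was at -2.45. From 30 to 60 min PPIA differed by 2.68 ± 1.10 in the BiC/4AP arm (5 of 5 clones above 0, or 2.65 with clone 4 at that signal) and by 0.21, 0.14 and -0.11 in the BiC/4AP + ActD, Block + ActD and Block arms, with a mean of 0.73 ± 1.31 (SD, n = 4 arms) over all and of 0.08 ± 0.17 over the last 3. Between 60 and 5 min, which leaves the 30 min arrays out, PPIA differed by 0.20 in the BiC/4AP, 0.12 in the BiC/4AP + ActD, 0.07 in the Block + ActD and -0.32 in the Block arm, with a mean of 0.02 ± 0.23 (SD, n = 4 arms). The PPIA levels at 60 and 5 min thus differed by less than the spread between the arms.

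NPM1 differed between 30 and 5 min by -0.82 ± 0.34 in the BiC/4AP arm (SD over clones, 11 of 11 below 0). In the BiC/4AP + ActD, Block + ActD and Block arms it differed by -0.05, 0.06 and -0.28. The 4 arms averaged -0.27 ± 0.39 (SD, n = 4 arms) and the 3 arms -0.09 ± 0.18. From 30 to 60 min it differed by 0.77 ± 0.43 in the BiC/4AP arm, where 10 of 11 clones were above 0, and by -0.21, -0.20 and -0.002 in the 3 others, taken in the same order. The mean was 0.09 ± 0.46 (SD, n = 4 arms) over all arms and -0.14 ± 0.12 over these 3. Between 60 and 5 min all 4 arms were below 0, at -0.05 (BiC/4AP), -0.26 (BiC/4AP + ActD), -0.15 (Block + ActD) and -0.29 (Block), with a mean of -0.19 ± 0.11 (SD, n = 4 arms). Over all spots the median of the same differences was 0.02 to 0.08. With an offset of 50 added to the raw values, which damps dim spots, the mean was close to 0, at -0.002.

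ActD asks whether the level, relative to all other spots, differs once transcription is stopped. Every array was set to a common mean and SD, so a fall shared by most transcripts would not show. It was tested with limma over all spots, with time and activity as covariates, 6 arrays against 6, and p-values were adjusted by Benjamini and Hochberg over all 9600 spots or 6284 genes. No spot passed an adjusted p of 0.05 in either direction (0% of 9600 spots). An unadjusted p under 0.05 by limma was found for 225 spots and 139 genes. Both are smaller shares than the 0.05 that arises with no difference. PPIA was 0.40 ± 0.30 (SE) higher with ActD (adjusted p = 0.990 by limma), above 0 in 3 of 6 pairs. Its levels were 8.19, 8.36 and 8.47 (lowest, median, highest) on the 6 arrays with ActD and 5.78, 8.31 and 8.56 on the 6 without. The difference was 2.40 ± 1.29 (SD over clones) in the 30 min BiC/4AP pair, or 2.37 with clone 4 at the lowest signal above background there, and -0.17 to 0.22 in the 5 others. Without the 30 min BiC/4AP array it was -0.01 ± 0.10 (SE, adjusted p = 0.9999 by limma).

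NPM1 was 0.13 ± 0.13 (SE) higher with ActD (adjusted p = 0.990 by limma), above 0 in 4 of 6 pairs. Its levels were 6.24, 6.47 and 6.58 (lowest, median, highest) on the 6 arrays with ActD and 5.66, 6.40 and 6.64 on the 6 without. It differed by 0.79 ± 0.39 (SD over clones) at 30 min BiC/4AP, where 10 of 11 clones were above 0, and by -0.19 to 0.23 in the 5 others. The largest of these, 0.23 at 30 min Block, was above 0 in all 11 clones. Without the 30 min BiC/4AP array the difference was -0.003 ± 0.098 (SE, adjusted p = 0.9999 by limma). None of the 16 clones passed the test, and none had an unadjusted p under 0.05. All 16 had a difference above 0 over the 12 arrays, and 8 of 16 had one without the 30 min BiC/4AP array. The share of all spots is not given here for either count. Among named genes, each a mean over its clones, 3056 of 6284 were above 0 over the 12 arrays. The genes were chosen with the low values of that array in view, so the estimates and p-values over 12 arrays are not free of the choice. The clones are also repeated readings, so nothing is read from these counts. Differences of the size of the standard errors were not detectable with 12 arrays. Whether the activity difference itself differed with ActD was not tested.

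**Figure D5:**
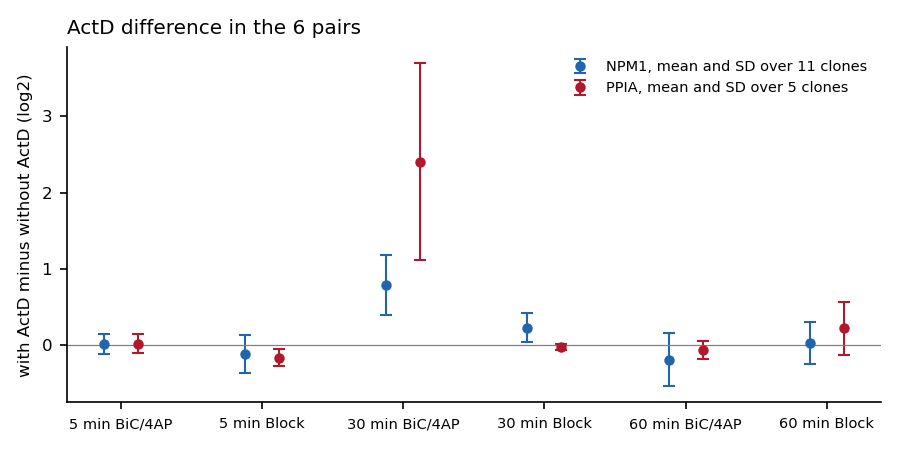
Difference with ActD minus without ActD, log2 (vertical axis), of NPM1 and PPIA in the 6 pairs of time and activity (horizontal axis). Points and whiskers are the mean and SD over 11 NPM1 and 5 PPIA clones. Only the 30 min BiC/4AP pair stands clear of 0 for both, at 0.79 and 2.40, and the other pairs lie between -0.19 and 0.23.

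Genes that work with NPM1 in the nucleolus had a median near 0 at 30 min. Of 101 listed genes of the nucleolus and ribosome biogenesis, 68 had a clone. Their median activity difference at 30 min without ActD was -0.04 (37 below 0, 31 above), beside a median of 0.003 and 3118 of 6284 below 0 over all named genes. Their brightest members were DDX21, a nucleolar RNA helicase (0.85), POLR1C, a subunit of RNA polymerases I and III (0.82), and IMP3, a component of the U3 small nucleolar complex (0.05). All 3 had a clone in the brightest 5% of spots, where medians were above 0. In the 5 other pairs the list's median was -0.02. With ActD its median difference was -0.04 over 12 arrays and -0.05 without 30 min BiC/4AP, and no gene passed limma in either direction in either case.

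Relatives of PPIA were also mixed. Of 44 listed cyclophilins and FK506-binding proteins, which are the other prolyl isomerases bound by immunosuppressants, 24 had a clone. Their median was -0.19 at 30 min without ActD, with 13 genes below 0 and 11 above. PPIC, cyclophilin C of the secretory pathway, was at 1.22 and FKBP10, an isomerase of the endoplasmic reticulum that acts on collagen, at 0.94, with 1 clone each. The PPIC clone was at brightness percentile 99.6, and spots above the 98th had a median of 0.79 in this pair. PPIE, a cyclophilin of the spliceosome, was at -0.25. The lowest gene of the list was at -0.87, above every PPIA clone. Of 18 listed calcineurin genes 3 had a clone: NFATC3, a transcription factor that calcineurin activates, was at -0.09, RCAN1, a calcineurin regulator, at -0.40, and PPP3CC, a catalytic subunit, at -0.87. No gene of either list passed limma for ActD in either direction, with or without the 30 min BiC/4AP array.

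Cell type markers were set beside the low values. Of 20 listed neuron markers 10 had a clone, and 13 of their 14 clones exceeded the blank spots on all 12 arrays. At 30 min without ActD, 9 of these 10 genes were below 0, with a median of -0.46. STMN2, a neuronal stathmin that binds tubulin, was at -1.65, its relative STMN3 at -1.26 and ENO2, neuronal enolase, at -0.01. The mean level of the list was 5.27 on the 30 min BiC/4AP array, against 5.58 to 5.93 on the 11 others. Its summed level was 439.6 to 829 normalized intensity units on the 6 BiC/4AP arrays, the lowest being the 30 min array, and 626 to 754 on the 6 Block arrays. No listed neuron marker with a clone was at background there. The list thus was low on the same array as NPM1 and PPIA, and its part in their values was not tested.

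Markers of the other cell classes kept within their range of the other arrays. The astrocyte list had a mean level of 5.30 there, against 5.11 to 5.32 on the 11 others (9 genes). The oligodendrocyte list had 4.97 against 4.46 to 4.98 (5 genes, PDGFRA at background), microglia 6.92 against 6.91 to 7.17 (7 genes), and fibroblasts and vessels 6.75 against 6.59 to 7.18 (7 genes, CLDN5 at background). The medians of these lists at 30 min without ActD were -0.11, 0.15, 0.11 and -0.06. Among their brightest members, the astrocyte genes SPARC, GLUL and GFAP were at -0.33, -0.11 and 0.03, the oligodendrocyte genes CNP, SOX10 and MBP at 0.43, -0.45 and 0.15, the microglial genes C1QB, LYZ and CTSS at 0.46, -0.03 and 0.63, and the fibroblast and vessel genes ACTA2, FN1 and COL6A2 at 0.19, 0.30 and -1.26. No marker passed limma for ActD in either direction, with or without the 30 min BiC/4AP array.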

How the data were processed

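Total RNA of 12 pooled samples was labelled with 33P and hybridized to nylon filters of cDNA clones. The intensity values were deposited by the authors unnormalized and linear, as read by image software from phosphor screens. In the series matrix 100% of values equalled them. No column of another sample was present (0 columns). Depth is not defined for such arrays, and their number limits the precision.

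Clones were named from the platform annotation through the first spot index. Of 9600 spots 21 had several symbols and 1083 were unnamed here. Under the first index the 16 NPM1 and PPIA clones had a median brightness percentile of 83.4, and under the second 59.2. As in the study, values were turned into z-scores within each array, here after a log2 step that its methods do not name. These were rescaled by the average SD (1.75) and the grand mean (5.56) was added. A z-fold was computed as a pair difference over its SD across spots, since the methods give no formula. Spots at position 25 of the 384 blocks were treated as blank after their low values were seen. The value 10, a placeholder in 232 spots, occurred in no NPM1 or PPIA clone. Genes were summarised as the mean over clones. A clone below the blank 95th percentile was also set at the lowest signal above it.

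ActD was tested with limma 3.58.1 in R 4.3.3 (lmFit, then eBayes with trend, two-sided, threshold 0.05 after Benjamini-Hochberg adjustment). The fit left 7 residual degrees of freedom. The procedure was first tried on simulated data with noise independent between spots and arrays. That trial could not show how the fit fares when a single array shifts many spots together. Each array is 1 pooled sample, so p-values measure only the spread between arrays of different times and treatments, which may be technical. The members, the gene lists and the tests were chosen with earlier results of these data known. Named are all NPM1 and PPIA clones, the genes with most clones among those with at least 5 (ties included), the 5 genes most correlated with each member, and the 3 brightest genes of each list. Named beyond that rule, after their values were seen, are the genes between PPIA and NPM1 in the 30 min pair, JKAMP and MAP7D1, and the markers at background. Alternatives were quantile, loess and median normalization, no blank spots, an offset of 50, position and block medians removed, the dimmest 25% left out, clone medians, no trend and left-out arrays. Numpy 2.4.6, pandas 2.3.3 and matplotlib 3.10.9 were used.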

Additional observations from a re-analysis of the deposited data

Results flagged for a closer look

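Among the 6 pairs of BiC/4AP and Block, the 30 min pair without ActD lay far from the 5 others (its gap to the nearest pair, as a share of the whole range, exceeded Dixon's 95% critical value). This held for the mean of PPIA, at -2.57, for the mean of NPM1, at -0.69, and for all 5 PPIA clones, at -2.51 (clone 1), -1.76 (clone 2), -2.34 (clone 3), -4.41 (clone 4) and -1.86 (clone 5). Clone 4 was not above background on that array, so its value is a measured reading and not a size. No single NPM1 clone met the criterion. Among the 6 pairs with and without ActD, the 30 min BiC/4AP pair lay far from the others for PPIA, at 2.40. This pair and the activity pair share the 30 min BiC/4AP array, so they are not separate events. NPM1 and PPIA were chosen with these pair differences in view, so the criterion serves here as a screen and adds no support. It marks about 1 in 20 groups by chance, and the clones of a gene are not independent of each other.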

How the results depend on the processing

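Samples could not be paired by replicate number, which is the same for all of them. Arrays with and without ActD were matched by time and activity, and these were covariates of the ActD fit. The activity difference in the 30 min pair without ActD kept its direction under all 8 other settings, from -2.84 to -1.87 for PPIA and from -0.69 to -0.42 for NPM1. Leaving out the dimmest 25% of spots could not change these values, as no NPM1 or PPIA clone was among them. All settings reprocess the same pair of arrays, so they do not show whether the difference would recur. The ActD count of spots stayed at 0 under every setting. Leaving out the 30 min BiC/4AP array turned the ActD difference of NPM1 to -0.00323 and of PPIA to -0.0126, and leaving out all 4 arrays of 30 min gave -0.0665 for NPM1. With each array left out in turn, the ActD difference ran from -0.00323 to 0.19 for NPM1 and from -0.0126 to 0.58 for PPIA. The mean over pairs, with each pair left out, ran from -0.23 to -0.08 for NPM1 and from -0.64 to -0.08 for PPIA, both at -0.08 without the 30 min pair. With each arm left out, the 30 against 5 min difference ran from -0.38 to -0.09 for NPM1 and from -0.93 to -0.12 for PPIA, both nearest 0 without the BiC/4AP arm, and the 60 against 5 min difference ran from -0.23 to -0.15 for NPM1 and from -0.04 to 0.13 for PPIA. An offset of 50 moved the 60 against 5 min difference of NPM1 to -0.0024, and the cause was not tested.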
